A study of Debaryomyces hansenii with 6 samples.

Results

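RNA of Debaryomyces hansenii after 6 h in 2 M NaCl was compared with RNA of the same yeast taken at time 0. The comparison rested on 2 of the 6 Agilent 2-colour arrays of the study, and on each of them the stressed RNA and the time-0 RNA competed for the same spots. The comparison started from all probes that were not array controls, 12640 for 6320 genes, and a filter on dim probes left 11721 probes for 5966 genes. No gene was chosen by its ratio. On the replicate 1 array the stressed RNA carried the dye Cy5 and the time-0 RNA Cy3. On the replicate 2 array, which used different biological replicates of both RNAs, the dyes were exchanged. Cells of both groups had grown in YPD, a rich medium with yeast extract, peptone and glucose, at 30 °C to early log phase, and the labels state no mutation or added gene. The other 4 arrays held cells after 0.5 h and 3 h in the salt. No untreated culture of 6 h was on the arrays, so an effect of the salt and an effect of time in culture cannot be told apart.

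D. hansenii is a yeast of salty habitats such as sea water, brines and cured foods, and it grows at salt concentrations that stop baker's yeast. Yeasts in strong salt face loss of water and entry of sodium. In baker's yeast the HOG kinase pathway answers the loss of water by raising genes for the synthesis of glycerol, the main protective solute, while pumps and exchangers in the membranes move sodium out of the cell or into the vacuole, and genes for ribosomes and growth are lowered for a time. The array files describe none of the genes by function, and the reference table used here gives locus names without roles. The loci are therefore described by name, level, time, place on the chromosomes and probe, and no role is given to any of them.

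On the 6 h arrays the stressed channel was well above background for 91.9% of the probes in replicate 1 and 76.4% in replicate 2, and the time-0 channel for 70.8% and 68.8%. Precision is limited by the small number of arrays. Spike-in transcripts, added in known mixtures, spanned 5.55 and 6.24 in log2 processed ratio on the 6 h arrays. The ratios below start from median signals. In these, before background correction, the spike-ins spanned only 3.34 on replicate 1 and 2.55 on replicate 2. On the 3 h array of replicate 1 the processed span was 2.48 and the median-signal span 1.11. That array enters the shared estimate of the spread and the 3 h values below. How far the ratios below are compressed was not tested. Of the 6320 genes, 5966 were bright enough to be tested, and 5120 of these have a locus name. All ratios below are log2 of stressed over time-0 signal, so that 1 is a doubling, and each gene is read from the brighter of its 2 probes.

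After 6 h the level of 434 genes, 7.27% of the 5966 tested, differed from time 0 at a Benjamini-Hochberg adjusted p under 0.05 in limma. Of these, 271 (4.54%) were higher and 163 (2.73%) were lower. The higher genes had a median log2 ratio of 1.18, which was 1.10 on the replicate 1 array and 1.31 on the replicate 2 array. The lower genes had a median of -1.01, with -0.80 on replicate 1 and -1.15 on replicate 2. The median of all tested genes was -0.01. A size of at least 1 was reached by 171 of the higher and 85 of the lower genes, together 4.29% of those tested, and a size of at least 2 by 38 higher and 8 lower genes. In this fit the higher side therefore held more genes and more of the large changes. Without the replicate 1 array of 6 h the calls were split almost evenly between the directions. Without the replicate 2 array too few genes passed to show a split. A share of 23.0% of the genes had an unadjusted p under 0.05. With the replicate number as a block, 755 genes (12.7%) passed, 422 higher and 333 lower, all 434 among them. The split between the directions depended on the scaling: when each array was only centred on its median, without loess, 415 genes were higher and 53 lower.

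The arrays of replicates 1 and 2 ranked the genes alike but not with the same span. Across genes their log2 ratios correlated with r = 0.704 over 5958 genes, and with r = 0.476 when the 434 genes were left out. Genes are not independent replicates, so these correlations carry no p-value. The SD of the log2 ratios across genes was 0.446 on replicate 1 and 0.595 on replicate 2. Of the higher genes 200 of 271, and of the lower genes 127 of 163, had the larger size on replicate 2. Dye orientation and biological replicate are the same split of these arrays, so the difference in span cannot be assigned to either. The plot of one array against the other shows this as a cloud that is steeper than the line of equal ratios.

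**Figure D1:**
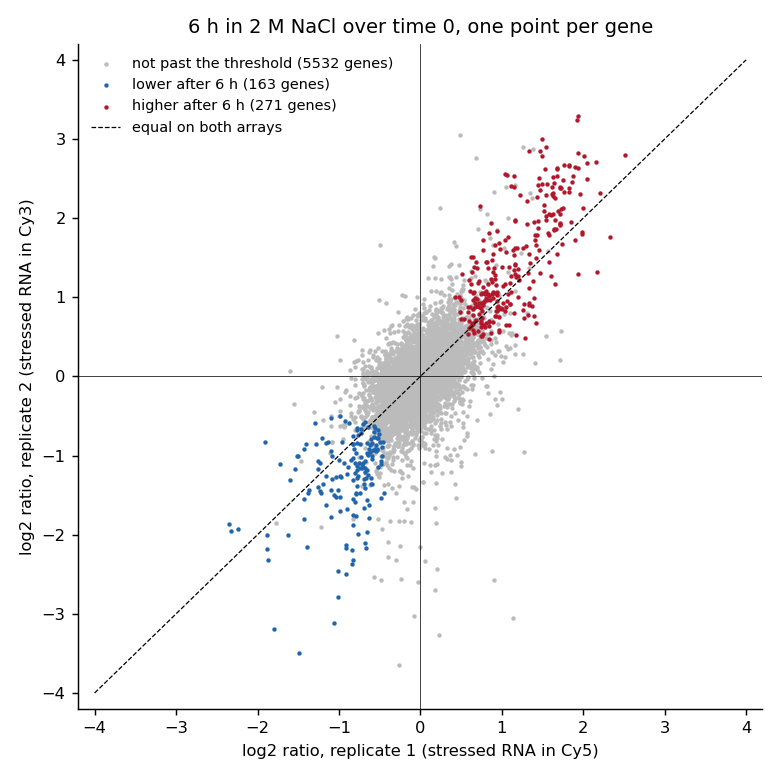
Each point is a gene, with its log2 ratio of stressed over time-0 signal at 6 h on the replicate 1 array (x axis) and the replicate 2 array (y axis). The 271 higher genes lie in the upper right and the lower genes in the lower left, with most of them farther from 0 on replicate 2 than on replicate 1. Of the 163 lower genes, DEHA2E10274g has no value on replicate 2 and is not drawn. The dashed line marks equal ratios.

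The 2 probes of a gene read the same RNA and are no separate replicates, but they do show whether a ratio hangs on one probe. For all 271 higher genes the other probe had a positive mean ratio, with a median of 1.13. For 162 of the 163 lower genes the other probe was negative, with a median over all 163 of -0.84. The other probe gave less than 50% of the log2 ratio for 3 higher and 8 lower genes.

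The highest ratio among the genes with a locus name belonged to DEHA2C03476g. It measured 2.51 on replicate 1 and 2.80 on replicate 2, both far above 0 and close to each other. The mean of 2.66 ± 0.20 (SD, n = 2) corresponds to 6.31-fold (adjusted p 0.00171 in limma). DEHA2C07370g measured 1.94 on replicate 1 and 3.29 on replicate 2, so that its arrays lay farther apart, around a mean of 2.61 (adjusted p 0.00633 in limma). DEHA2G18964g measured 1.92 and 3.24 in the same order. The most even of the 12 highest loci was DEHA2F16566g, at 2.20 on replicate 1 and 2.32 on replicate 2.

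The other highest loci, in falling order, were DEHA2F09614g, DEHA2D08558g, DEHA2B06864g, DEHA2E22946g, DEHA2C07920g, DEHA2A13200g, DEHA2B04928g and, after DEHA2F16566g, DEHA2B04686g. The means of all 12 ran from 2.25 to 2.66, their replicate 1 values from 1.82 to 2.51 and their replicate 2 values from 2.32 to 3.29. Each of the 12 was larger on replicate 2, and no value of either array came near 0. The order within the 12 is not firm, since the median SD of 0.51 exceeds the whole range of their means. Their other probes gave means between 1.91 and 2.77. Their normalized log2 signal lay between 7.29 and 9.50 at time 0 and between 9.90 and 11.8 after 6 h. The fit has a term per time, so leaving out a 0.5 h array changes the shared spread and not these ratios. When the replicate 2 array was left out, DEHA2C03476g alone of the 12 passed the threshold. The ratios then ran from 1.82 to 2.51 and the adjusted p-values from 0.0394 to 0.347 in limma. Without replicate 1 or without either 0.5 h array 11 of the 12 passed, and the call of DEHA2D08558g was lost (adjusted p 0.0874 and 0.0543 in limma).

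DEHA2F27104g and DEHA2C03828g had the lowest ratios. DEHA2F27104g measured -1.80 on replicate 1 and -3.19 on replicate 2, a mean of -2.50 ± 0.98 (SD, n = 2) or 5.64-fold lower (adjusted p 0.00495 in limma). DEHA2C03828g measured -1.49 and -3.49, which is the widest gap between the arrays among the 24 loci at both ends, and its mean was -2.49. It is also one of the brightest of the lowest loci, with a normalized log2 signal of 13.6 at time 0 and 11.1 after 6 h.

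DEHA2E01166g and DEHA2E21582g followed with a smaller spread and were larger in size on replicate 1. DEHA2E01166g measured -2.33 on replicate 1 and -1.95 on replicate 2, a mean of -2.14 ± 0.26 (SD, n = 2). DEHA2E21582g measured -2.35 and -1.86, a mean of -2.11 ± 0.35. Each had an adjusted p of 0.00171 in limma. DEHA2G00110g measured -1.88 on replicate 1 and -2.0 on replicate 2, and it is the outermost tested locus of its end of chromosome G.

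The other lowest loci were DEHA2G19602g, DEHA2F24860g, DEHA2E18568g, DEHA2A06314g, DEHA2C06072g, DEHA2E06666g and DEHA2F19756g. The 12 means ran from -2.50 to -1.74, and 9 of the 12 were larger in size on replicate 2. The other probe of DEHA2E18568g gave -1.26 against -2.03 for the probe used, and that of DEHA2E06666g gave -1.23 against -1.77. For these loci the size of the fall depends on the probe. All 12 passed without replicate 1. Without replicate 2 the ratios ran from -2.35 to -1.01 (adjusted p from 0.0394 to 0.335 in limma), and 5 passed, which were DEHA2E01166g, DEHA2E21582g, DEHA2E18568g, DEHA2F27104g and DEHA2G19602g. Without either 0.5 h array the calls of DEHA2C03828g, DEHA2A06314g and DEHA2F19756g were lost, with adjusted p-values of up to 0.0616 in limma.

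**Figure D2:**
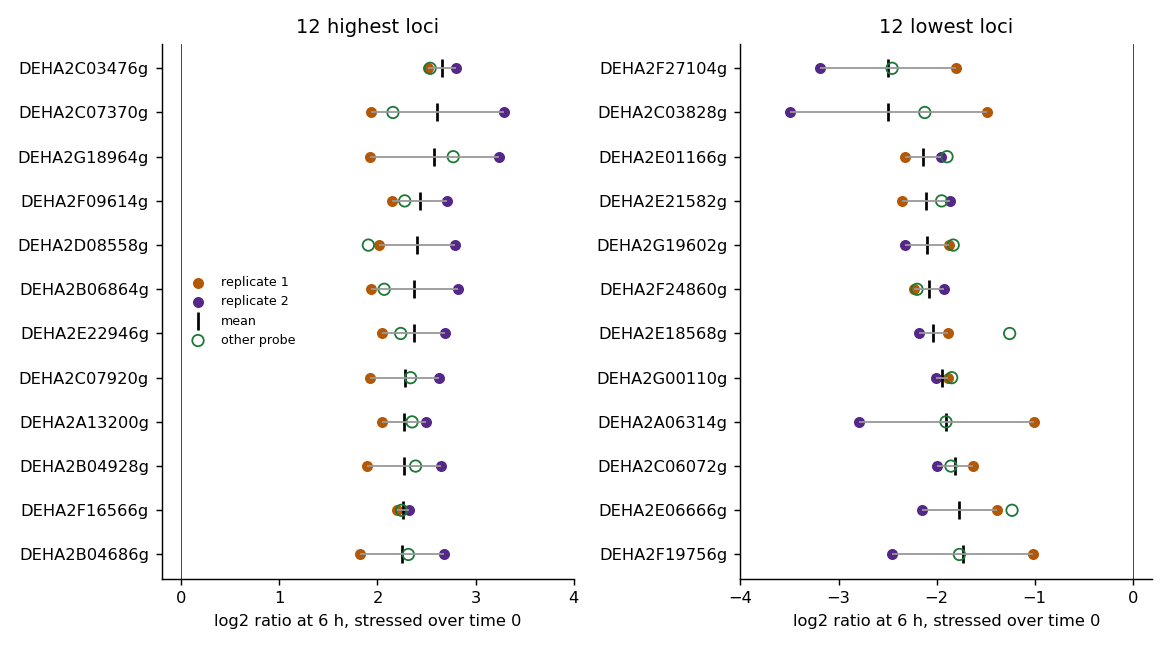
For the 12 highest loci (left) and the 12 lowest loci (right), filled points give the log2 ratio at 6 h on the replicate 1 and replicate 2 arrays, the black bar their mean and the open circle the mean of the gene's other probe. Replicate 2 lies farther from 0 for all 12 highest and for 9 of the 12 lowest loci, and the other probe of DEHA2E18568g lies apart at -1.26.

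Among transcripts that gave bright spots, the higher genes with the highest mean signal were DEHA2G17820g, DEHA2A14388g, DEHA2F22242g, DEHA2B01804g and DEHA2F24398g. DEHA2G17820g measured 1.46 on replicate 1 and 2.36 on replicate 2, a rise from a normalized log2 signal of 12.7 to 14.6. DEHA2B01804g and DEHA2F24398g went the other way between the arrays, with 1.94 and 1.27 on replicate 1 against 1.29 and 0.73 on replicate 2. The smallest rise of the 5 was that of DEHA2A14388g, whose mean ratio was 0.77. Without replicate 2 only DEHA2B01804g passed of these 5. Without replicate 1, or without either 0.5 h array, DEHA2G17820g, DEHA2F22242g and DEHA2B01804g passed.

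The brightest lower loci were DEHA2C03630g, DEHA2C13398g, DEHA2A07700g, DEHA2G03740g and DEHA2C06072g, at normalized log2 signals between 13.0 and 13.7 at time 0. DEHA2C03630g measured -1.42 on replicate 1 and -1.55 on replicate 2, and its other probe gave -1.41. DEHA2C06072g, which is also one of the 12 lowest, measured -1.63 and -2.0. The mean ratios of the others were -1.39 for DEHA2C13398g, -1.19 for DEHA2A07700g and -0.75 for DEHA2G03740g, whose other probe gave -0.40. Centring on the median without loess moved DEHA2G03740g to -0.15, and 2 of the 5 brightest lower loci then passed the threshold. With a trended and robust moderation 1 of these 5 passed (adjusted p up to 0.272 in limma), and 3 of the 5 brightest higher loci (up to 0.236). Without replicate 2, 0 of the 5 passed (adjusted p from 0.0866 to 0.361 in limma), and without replicate 1 or either 0.5 h array all but DEHA2G03740g did.

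At the dim end, some loci rose from a time-0 signal that was not well above background on either array, so that only a lower bound of the fold can be given. These loci were chosen after their values were seen. DEHA2E18788g measured 1.32 on replicate 1 and 1.31 on replicate 2 and was at least 2.48-fold higher (adjusted p 0.0073 in limma). DEHA2C09218g was at least 2.03-fold, DEHA2A00946g at least 1.93-fold, DEHA2B09394g at least 1.61-fold and DEHA2A12804g at least 1.51-fold higher. In these bounds a dim time-0 spot counts as no lower than the dimmest signal that was well above background on its array. For DEHA2C09218g and DEHA2B09394g the time-0 spot was not below that limit on either array, so their bounds are the plain mean ratios. DEHA2C09218g measured 0.66 on replicate 1 and 1.38 on replicate 2, so its replicate 1 value lies under its bound. All of these bounds are estimates from the brighter probe and not guaranteed minimum folds. The other probe gave a smaller log2 ratio than the bound for each of these loci. It was 1.10 for DEHA2E18788g, 0.62 for DEHA2C09218g and 0.56 for DEHA2A00946g. For DEHA2B09394g it was 0.64, and for DEHA2A12804g 0.37, with -0.06 on replicate 1. A sixth such locus, DEHA2B05654g, has its other probe above background at time 0, and that probe gave a ratio of 0.67. For 8 more higher genes the time-0 signal was well above background on 1 of the 2 arrays, as was the stressed signal of 8 lower genes.

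Brighter genes passed the threshold more often. The genes were ranked by mean signal and cut into 5 groups of nearly equal size. In the dimmest group 0 were higher and 2 lower, together 0.168%. In the brightest 156 were higher and 89 lower, together 20.5%. The shares in between were 2.26%, 4.53% and 8.89%. Among the 846 genes without a locus name 4.26% passed, against 7.77% of the 5120 with one. Whether dim genes changed less or were measured with too little signal was not tested.

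The genes that had changed at 6 h were read at the earlier times as well. The higher genes had a median ratio of 0.36 at 0.5 h, 0.90 at 3 h and 1.18 at 6 h, and the lower genes -0.39, -0.62 and -1.01. The labels do not say whether arrays of different times share a time-0 sample, and these genes were chosen at 6 h, so the values are set side by side without a test of overlap. The difference between 6 h and 0.5 h was tested in the same fit. It passed for 1 of the 271 higher genes and 0 of the 163 lower genes, and for 0.0335% of all tested genes, while 181 (66.8%) and 76 (46.6%) had an unadjusted p under 0.05 in limma, against 8.23% of all tested genes. The 6 h values chose these genes and enter this difference, so the larger shares are no separate result. For 6 h against 3 h the test in limma gave 0 genes, with 61 higher (22.5%) and 50 lower genes (30.7%) at an unadjusted p under 0.05, against 9.67% of all tested genes.

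The measured courses of single loci are given next, and differences in course between loci were not tested. DEHA2C03476g, the 1 higher gene whose difference from 0.5 h passed, measured -0.08 and -0.12 at 0.5 h, 1.59 and 2.14 at 3 h, and 2.51 and 2.80 at 6 h on replicates 1 and 2. Its early values lay at 0 and did not overlap the later ones. DEHA2C07370g measured 0.04 and 0.94 at 0.5 h and 0.68 and 0.12 at 3 h. All of these lay below both of its 6 h values of 1.94 and 3.29. The differences of 2.13 from 0.5 h and 2.21 from 3 h did not pass (adjusted p 0.249 and 0.433 in limma). DEHA2G18964g was at 2.29 and 4.03 at 3 h, values that overlap those at 6 h. Of the 12 highest loci 10 also passed at 3 h, where 6.15% of all genes did, and 0 passed at 0.5 h. The fit uses the same spread of a gene at every time, so passing at 3 h is not separate from passing at 6 h. The same holds for the lowest loci below.

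Among the lowest loci DEHA2E01166g and DEHA2E21582g were already low early. DEHA2E01166g measured -1.84 and -1.66 at 0.5 h and -1.86 and -2.05 at 3 h, close to the -2.33 and -1.95 at 6 h. DEHA2E18568g measured lower at 6 h than at both earlier times, with -0.59 and -0.69 at 0.5 h, -0.34 and 0.08 at 3 h, and -1.89 and -2.18 at 6 h, yet the difference from 3 h of -1.91 did not pass (adjusted p 0.215 in limma). Its other probe gave the smaller ratio stated above. Of the 12 lowest loci 9 passed at 3 h and 2 at 0.5 h, where 0.067% of all genes did. The bright locus DEHA2G03740g had means of -1.18 at 0.5 h, 0.85 at 3 h and -0.75 at 6 h. For 4 of the 5 brightest higher loci the mean was larger at 3 h than at 6 h, such as 3.49 against 1.91 for DEHA2G17820g, and none of these differences passed.

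**Figure D3:**
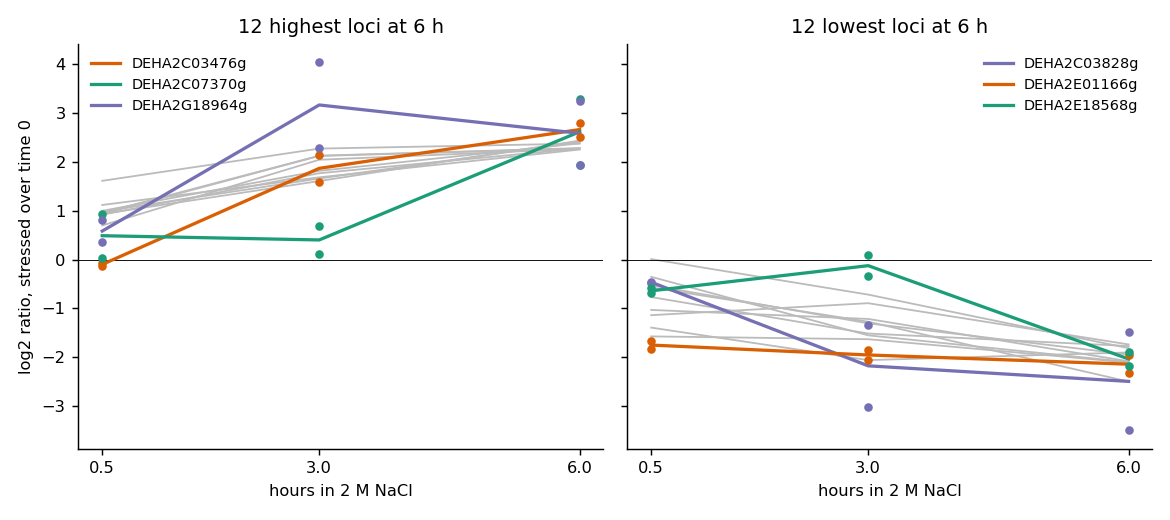
Lines join the mean log2 ratios at 0.5, 3 and 6 h of the 12 highest (left) and 12 lowest (right) loci at 6 h, and 3 loci in each panel are coloured, with points for the replicate 1 and replicate 2 arrays. DEHA2C03476g lies near 0 at 0.5 h, and DEHA2C07370g lies lower at 3 h than at 6 h, a difference that did not pass. DEHA2E01166g is near its 6 h level at 0.5 h.

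The changes were spread over all 7 chromosomes, A to G. Between 4.29% and 5.60% of the tested loci of a chromosome were higher and between 1.67% and 3.90% lower. The share of lower loci was larger near the chromosome ends. Of the 172 tested loci among the outermost 20 of each end, 14 (8.14%) were lower and 3 (1.74%) higher, against 130 (2.63%) lower and 251 (5.07%) higher of the 4948 loci further in. Each chromosome had between 1 and 3 lower loci there. Among them, DEHA2B00176g, DEHA2C00308g and DEHA2D00264g have probes that match one another in 46 to 60 of 60 bases, so they may share signal. The median ratio was -0.11 at the ends and -0.01 further in. The end loci were also dimmer, with a median log2 signal of 6.74 against 7.61, and the part of this in the result was not tested. Without replicate 1 of 6 h, 3 of the loci at the ends were lower (1.74%, against 1.70% further in). Without replicate 2 it was 1 locus (0.581%, against 0.0808%), and without either 0.5 h array 5 (2.91%, against 1.17%). With the deposited values it was 8 loci (4.65%, against 1.37%).

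Within the outermost 10 loci of each end, 8 of 77 (10.4%) were lower and 1 was higher. These loci are named because of their place, after their values were seen. The lower ones were DEHA2G00110g, DEHA2G00198g, DEHA2C17776g, DEHA2B00220g, DEHA2F27346g, DEHA2D00264g, DEHA2B16698g and DEHA2B00176g. DEHA2G00198g measured -1.43 on replicate 1 and -0.92 on replicate 2, and DEHA2C17776g -1.14 and -0.83. Both are dim after 6 h, at normalized log2 signals of 7.15 and 6.45. The stressed signals of DEHA2C17776g and DEHA2B16698g were not well above background on replicate 2, so their ratios there are less certain. For DEHA2B16698g the mean was -0.67, while its other probe gave -0.27. It also has probe bases in common with 3 other genes, in up to 59 bases. The higher one, DEHA2G00242g, measured 0.63 and 1.32 and lies near DEHA2G00198g on chromosome G. Of the 77 loci, 17 have a probe that is like a probe of another gene, and 4 of the 8 lower ones are among them. Of the 60 without such a probe 4 (6.67%) were lower.

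**Figure D4:**
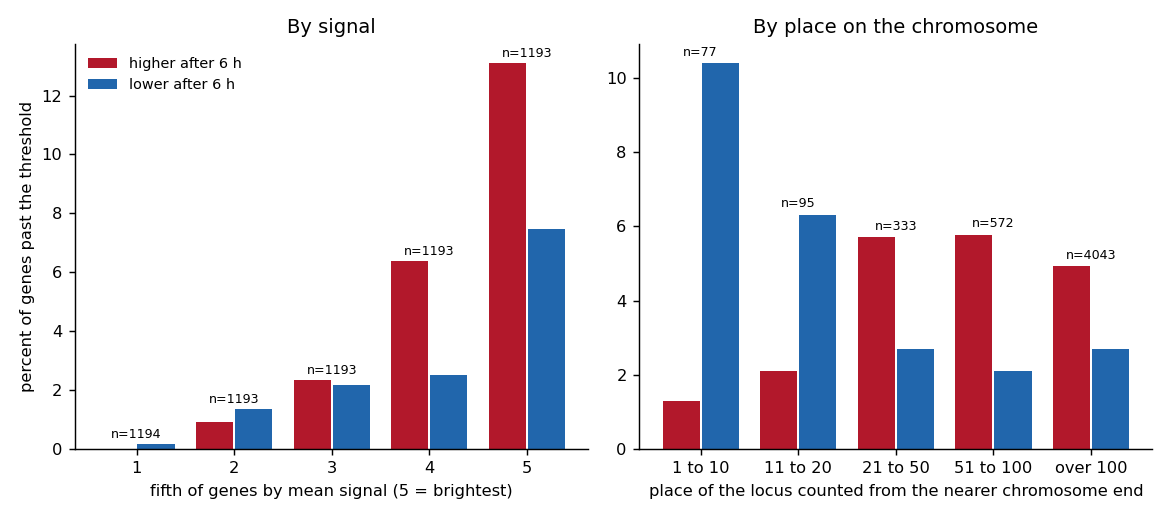
Bars give the percent of genes higher (red) and lower (blue) after 6 h, in 5 groups by mean signal (left) and by place counted from the nearer chromosome end (right), with the number of genes above the bars. The share rises with signal to 13.1% higher and 7.46% lower, and the lower share is 10.4% in the outermost 10 loci and 2.7% beyond 100.

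Loci of one direction also lay side by side. A tested neighbour that was lower too was found for 22 of the 144 lower loci (15.3%), while 5.51% of all tested loci have a lower neighbour. For the higher loci it was 33 of 254 (13.0%), against 9.49%. The share for the lower loci moved with the arrays and the processing. It was 4.6% against 3.38% without replicate 1 of 6 h, 0% against 0.195% without replicate 2 and 3.17% against 2.44% without either 0.5 h array. It was 5.77% against 3.98% when the background was not corrected, and with the deposited values 2.63% against 2.93%. For the higher loci it was 8.16% against 3.83% without replicate 1, 0% against 0.195% without replicate 2 and 6.94% against 5.51% with the deposited values. The longest runs held 3 loci, and there were 5 of them, 3 higher and 2 lower.

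On chromosome G the neighbours DEHA2G15422g, DEHA2G15444g and DEHA2G15466g rose together, with means of 1.76, 1.46 and 1.76. On replicates 1 and 2 DEHA2G15466g measured 1.66 and 1.86. The next tested locus, DEHA2G15510g, was lower, with a mean of -0.60. On chromosome F the neighbours DEHA2F08228g, DEHA2F08250g and DEHA2F08272g had means of 2.15, 1.18 and 0.90, falling along the run. On chromosome D it was the reverse, with 0.94, 1.13 and 2.11 for DEHA2D09372g, DEHA2D09394g and DEHA2D09416g. DEHA2D09460g, separated from that run by 1 tested locus that did not pass, was higher as well, at 1.54 on replicate 1 and 2.30 on replicate 2.

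The lower runs were smaller in size. DEHA2A02376g, DEHA2A02398g and DEHA2A02420g had means of -1.05, -1.29 and -0.79, and the values of DEHA2A02398g were -0.83 on replicate 1 and -1.75 on replicate 2. DEHA2E09460g, DEHA2E09482g and DEHA2E09504g had means of -0.95, -0.75 and -0.64. DEHA2E09504g measured -0.64 on each of the 2 arrays. Of the 15 loci in the 5 runs, 0 passed without replicate 2, 5 without replicate 1, 11 without either 0.5 h array, and 7 with the deposited values or the processed signals.

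**Figure D5:**
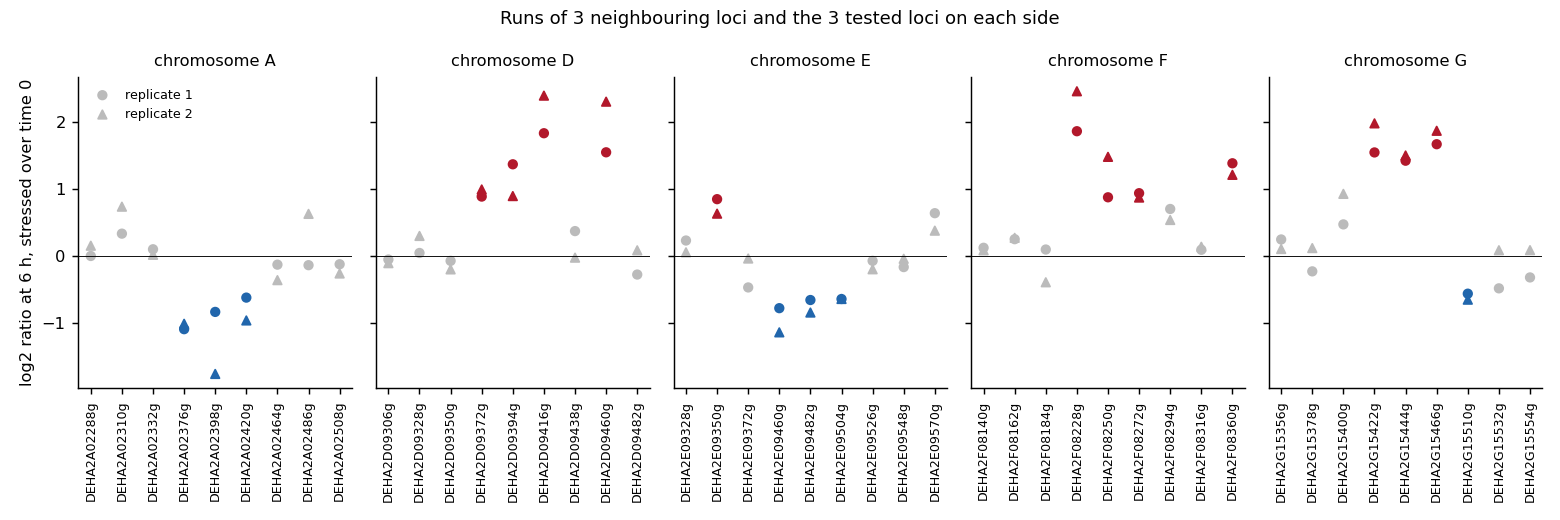
Each panel shows a run of 3 neighbouring loci and the 3 tested loci on each side, with the log2 ratio at 6 h on replicate 1 (circles) and replicate 2 (triangles), red for higher, blue for lower and grey for loci that did not pass. The loci of a run lie on one side of 0 on both arrays, and most of the loci beside them lie near 0.

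Some probes are so alike that 2 loci may share signal. Of 60 bases, at least 45 matched between a probe of the gene and a probe of another gene for 10 of the 271 higher (3.69%), 12 of the 163 lower (7.36%) and 87 of the other genes (1.57%). There were 14 such pairs in which both genes have a locus name and at least 1 passed. In 4 pairs both were higher and in 4 both were lower, and in 6 only one passed. The lower pairs include every pairing of DEHA2B00176g, DEHA2C00308g and DEHA2D00264g, so they are not separate cases. These loci were chosen by their probes after the values were seen.

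DEHA2B04928g and DEHA2C07920g, both among the 12 highest, match in 51 bases. They measured 1.90 and 1.93 on replicate 1 and 2.64 and 2.63 on replicate 2, so their values cannot be told apart. DEHA2F03300g and DEHA2G07392g match in 58 bases, with means of 1.89 and 1.82. DEHA2F09614g and DEHA2D09460g match in 54 bases, with means of 2.43 and 1.92. In contrast, DEHA2B15268g and DEHA2D12034g match in 58 bases in both of their probes but gave means of 1.83 and 0.26. DEHA2D12034g did not pass, at 0.62 on replicate 1 and -0.11 on replicate 2, while its other probe gave 1.70.

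Among the lower loci DEHA2B00176g and DEHA2D00264g, both near chromosome ends, match in all 60 bases in both of their probes. They gave means of -0.66 and -0.73, and -0.71 and -0.84 with the other probe, so the array cannot say which of them was lower. DEHA2C00308g, also near a chromosome end, matches each of them in 46 to 50 bases and had a mean of -0.60. DEHA2C00660g and DEHA2E00484g match in 55 bases and gave -0.93 and -1.21, but the other probe of DEHA2C00660g gave 0.04. DEHA2F22242g, one of the brightest higher loci, matches DEHA2D08514g in 47 bases. That locus measured 1.05 and 2.40, a mean of 1.72 like the 1.69 of DEHA2F22242g, but did not pass (adjusted p 0.0548 in limma, and 0.00563 with the replicate block).

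The threshold is not a gap in the data. Just inside it lay DEHA2F11726g, with a mean of 0.96, and DEHA2F10758g, with a mean of -0.70 and -0.19 for its other probe, and with a stressed signal that was not well above background on replicate 2. Just outside lay DEHA2D01936g at -0.57 and DEHA2C16368g at -0.80. Both passed with the replicate block (adjusted p 0.0329 and 0.0367 in limma) and without either 3 h array. Another 58 genes had a mean of at least 1 in size and did not pass, 32 positive and 26 negative, and 4 of them had opposite signs on the 2 arrays. Their median SD was 0.89, against 0.16 over all genes. The largest of them are named after their values were seen. DEHA2G13508g measured 1.38 on replicate 1 and 2.88 on replicate 2, a mean of 2.13 with an adjusted p of 0.0876 in limma. DEHA2F13398g measured -0.26 and -3.65, so that its mean of -1.96 rests on replicate 2. DEHA2B15928g measured -1.77 and -1.85, close to each other, with an adjusted p of 0.0996 in limma. Its arrays of the other times lay far apart, at -0.33 and 1.26 for 0.5 h and -2.35 and 0.28 for 3 h, and they enter the shared estimate of the spread. DEHA2G13508g, DEHA2F13398g and DEHA2B15928g each passed with the replicate block, with adjusted p-values of 0.0133, 0.0133 and 0.0207 in limma. DEHA2E10274g passed on 1 array only, with -1.71 on replicate 1 and a spot left out as an outlier on replicate 2.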

How the data were processed

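Labelled, amplified RNA was read on 2-colour Agilent arrays. Per the file headers, the scanner software was Feature Extraction 9.1.3.1. The intensities deposited by the authors are medians over the pixels of each spot and its surroundings, beside processed signals. The deposited log10 ratios set processed red against processed green. The deposited table of log2 ratios was made by the authors, and the submitters' processing notes name limma. Its scale and direction (stressed over time 0) were found by comparison, with r = 0.956 and 0.981 against the ratios used here and column medians of 0.0144 and 0.00364 for the 6 h arrays. The normalization and centring of that table are not given in the sources used here.

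For the values reported, limma 3.58.1 in R 4.3.3 applied normexp with an offset of 50 to the median signals, then loess per array, with control and outlier spots at weight 0, and 16 outlier values were left out. Ratios were turned to stressed over time 0. The filter kept a probe if 2 or more of its 12 channel values stood well above background, and a gene was read from its brighter probe, which gave 5966 genes. One fit over all 6 arrays with a term per time was tested with lmFit and eBayes at an adjusted p of 0.05, so the spread is shared over the times. The procedure was tested on simulated data with independent errors and no replicate or dye effect. That run cannot show how the shared deviations described next affect the calls. Across genes, arrays with the same replicate number deviated together (r = 0.194, 0.312 and 0.370 between times). By this check, and not by the labels, the numbers may be read as pairs. A pairing of cultures and an effect of the dye cannot be told apart by it. The main fit does not use these pairs. Its calls and adjusted p-values hold no replicate block, except where the block is named. The count with a replicate block is given beside them, and dye orientation is the same split. The labels state different biological replicates for the 2 arrays of a time, and whether arrays of different times share a culture or control is not stated.

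A table of assembly ASM644v2 gave locus names for the accessions of 5348 of 6320 genes. The array files name no assembly, so the table served for names and the order of loci only. The named loci, among genes past the threshold with the same sign on both arrays and both probes, are the 12 highest and 12 lowest, the 5 brightest of each direction, the longest runs of neighbours (5 tied at 3 loci, all given) and 2 genes on either side of the threshold. Gene lists of baker's yeast symbols were made, but none of their symbols was matched to a tested locus, so they were not run. The loci and lists were chosen with earlier results of these data known. The alternatives tried were the background correction, the normalization, the deposited table, the filter, the probe of a gene, the moderation, the block, the arrays in the fit, and each array left out.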

Additional observations from a re-analysis of the deposited data

Results flagged for a closer look

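Between 6 h and 0.5 h the log2 ratio to time 0 differed, by a test of the difference in limma, for 2 of 5966 genes. DEHA2C03476g was higher at 6 h by 2.76 (adjusted p 0.0133). DEHA2E14234g was higher at 6 h by 3.22 (adjusted p 0.00734). Its ratio was -2.82 at 0.5 h and 0.39 at 6 h, where it did not pass (adjusted p 0.224). Without replicate 1 of 6 h both differences missed the threshold (2.90 and 2.96, adjusted p 0.0595 each in limma), as they did without either 0.5 h array (adjusted p from 0.145 to 0.265). Without replicate 2 of 6 h that of DEHA2C03476g missed it (2.61, adjusted p 0.183 in limma) and that of DEHA2E14234g passed (adjusted p 0.0224). With other processing that of DEHA2C03476g also missed it with no background correction, plain subtraction, the mean over probes, the dimmer probe and the deposited table (adjusted p 0.169, 0.054, 0.0856, 0.0538 and 0.203). With a trended and robust moderation that of DEHA2E14234g missed it at an adjusted p of 0.0517 in limma, as it did with the processed signals (0.0692) and the deposited table (0.116). Whether the 0.5 h and 6 h arrays share a time-0 sample is not stated.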

How the results depend on the processing

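With 2 arrays per time, the number of calls at 6 h depended strongly on which arrays entered the fit. Leaving out an array of 0.5 h or 3 h does not change the 6 h ratios, since each time has its own term. Only the shared estimate of the spread then differs, so those fits do not test the 6 h ratios themselves. Leaving out each array in turn gave between 11 and 723 calls, between 5 and 433 higher and between 6 and 290 lower. The lowest of these came without replicate 2 of 6 h, where 7 of the 48 loci of the naming rule passed. Without replicate 1 of 6 h it was 203, with 34 of the 48 loci. Leaving out a 0.5 h array, whichever of them, gave 218, and leaving out a 3 h array 723. The replicate block, which takes the difference between the numbered pairs out of the error, gave 755 calls, 422 higher and 333 lower, and the 6 h arrays alone gave 694, 423 higher and 271 lower. No background correction gave 284 calls, 169 of them higher. The processed signals gave 236, 158 higher and 78 lower, and the values of the deposited table gave 236, 153 higher and 83 lower. Centring without loess gave 415 higher and 53 lower. A trended and robust moderation over the mean log2 signal gave 480. When its trend was taken over the mean log2 ratio, an alternative added after the data were seen, 12 passed. That mean contains the 6 h ratios under test, so this count is not a like setting beside the others. The other settings moved the counts at 6 h by less than 1.5 times. Over the planned settings 2 of the loci named above changed direction. They were DEHA2C00660g with the dimmer probe (0.0412) and DEHA2D12034g, which had not passed, at 0.62 without replicate 2 and -0.11 without replicate 1 of 6 h. For the difference from 0.5 h, 1 gene passed with no background correction, with plain subtraction, with the processed signals, with the mean over probes, with the dimmer probe and with a trended and robust moderation. It was 0 with the deposited table, 5 with the replicate block or with the replicate as a random block, and between 0 and 2 with an array left out. For the difference from 3 h, 1 gene passed with the dimmer probe, and between 0 and 1 with an array left out. The causes were not tested. In the dimmest of 5 groups by signal 0.168% of the genes passed, and whether signal limits the calls there was not tested.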
